A study of Mus musculus with 4 samples.

Results

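The Clec4b1 and Cd72 macrophages are C1q-rich macrophages of a mouse glioma that carry transcripts of 2 C-type lectin receptors, Clec4b1 and Cd72. They were gated from single cells on counts of unique molecular identifiers (UMIs, each standing for 1 captured transcript). A barcode had to hold at least 500 genes, under 10% of its UMIs from mitochondrial mt- genes, at least 30 UMIs of C1qa, C1qb and C1qc together, and no UMI of Cd3e or Cd79a. It also had to hold fewer than 2 UMIs of the microglia genes P2ry12, Tmem119, Crybb1 and Sall1, fewer than 4 of the hypoxia genes Hilpda, Ndrg1 and Egln3, fewer than 5 of Gpnmb and fewer than 3 of Chil3. Of the 942 barcodes within these limits, here called candidates, the 184 with at least 3 Cd72 UMIs and at least 1 Clec4b1 UMI are the members (19.5%). They are 184 of 13960 barcodes in all, 98 of 6689 from WT and 86 of 7271 from CaMKK2 KO mice. The 758 remaining candidates, called the others, are the comparator throughout.

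The host animals were C57Bl/6 mice of 8 to 12 weeks, examined on day 14 after 50000 CT2a cells, a mouse glioma line, had been implanted in the brain. Immune cells of the hemisphere with the tumor were sorted as live and CD45+ from 4 WT and 4 CaMKK2 KO (CaMKK2-/-) mice. The KO is germline and so not limited to immune cells, and no mouse of either group is described as having had a further treatment. Each library pooled 4 animals of 1 genotype, told apart by hashtag antibodies, on 1 10X channel. The methods say of all transgenic lines together that they came from C57BL/6 mice or had been backcrossed to them. They give different sources for the C57BL/6J and the CaMKK2-/- mice and do not call them littermates. A difference by genotype therefore cannot be told apart from one by channel or by colony, and the p-values below measure the spread between mice of the same channel. Mice are numbered by hashtag, and a number that a WT and a CaMKK2 KO mouse share does not link them.

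Clec4b1 is a receptor of the Dectin-2 family, whose genes lie side by side on mouse chromosome 6 and whose activating members signal through the Fc receptor gamma chain, Fcer1g. Cd72 is best known as an inhibitory receptor of B cells and is also found on macrophages. Of the other 4 genes proposed as markers of these cells, Klra17 encodes the inhibitory receptor Ly49Q, Ccl7 a chemokine that draws CCR2+ monocytes, Htra4 a secreted serine protease and Ch25h the enzyme that makes 25-hydroxycholesterol. Macrophages of a tumor arise largely from blood monocytes, which lose Ly6c2 and other monocyte transcripts and gain C1q as they mature, whereas brain-resident microglia are marked by P2ry12, Tmem119 and Sall1. On the genome build mm10 (GENCODE M21) Cd72 (ENSMUSG00000028459) lies on chromosome 4 from 43446462 to 43454628 and Clec4b1 (ENSMUSG00000030147) on chromosome 6 from 123049962 to 123071555, both as protein-coding genes.

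Members were somewhat deeper than the others. Their median was 16666 UMIs and 3844 genes in WT and 17071 UMIs and 3748 genes in CaMKK2 KO mice. Among the others the medians were 13790 UMIs (WT) and 14266 UMIs (CaMKK2 KO). The mt- share, at a median of 3.44% in WT and 3.92% in CaMKK2 KO members, stood above the 2.34% and 1.88% of the others. Of the 13 mt- genes tested later, a set looked at after the values were seen, 12 were higher in members, and the part of the mt- share in the differences below was not tested. HTODemux, which reads the hashtag counts, assigned 177 members to 1 mouse, 92 WT and 85 CaMKK2 KO, called 7 as hashtag doublets (6 WT and 1 CaMKK2 KO) and none as negative. Scrublet, which scores likely doublets, put 3 of the 184 members, all WT, among the 833 barcodes with the highest scores, against 41 of the 758 others. The libraries shared 42 barcode sequences, and 1 member carried such a barcode.

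Because Cd72 and Clec4b1 chose the cells, their values are a description with no test. Cd72 was a plentiful transcript, with a median of 15.0 UMIs per member in both genotypes and a highest value of 101 (WT) and 96 (CaMKK2 KO). Clec4b1 was scarce, with a median of 2 UMIs in WT and 3 in CaMKK2 KO members, and 68 of the 184 members held a single one. Most of the choice was therefore made by Clec4b1: 59.4% of the candidates held at least 3 Cd72 UMIs, and 32.9% of these were members, whereas 92.5% of the 199 candidates with a Clec4b1 UMI were. Among candidates with Clec4b1, 9 held exactly 3 Cd72 UMIs and were just inside the limit, and 6 held exactly 2 and were just outside. Cd72-positive cells without Clec4b1, of which there were 376, are the larger group next to the members.

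The pair of receptors was not confined to the gate. Barcodes were counted as positive for both with at least 3 Cd72 UMIs and at least 1 Clec4b1 UMI. Over all barcodes that passed the filters on genes and mt- UMIs, 836 were positive for both (497 WT and 339 CaMKK2 KO), and 652 of them were not members. At least 30 C1q UMIs and at least 2 UMIs of the 4 microglia genes were present in 590 of these, and 305 held at least 5 microglia gene UMIs. A further 21 were C1q-gated macrophages over the hypoxia, Gpnmb or Chil3 limits, and 31 had under 30 C1q UMIs. Members are thus 22.0% of the barcodes positive for both by these limits, and what follows holds for those with fewer than 2 UMIs of the microglia genes.

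Across simple gates on hashtag singlets, Clec4b1 stood at 189 CPM (the gene's UMIs per 1000000 UMIs of the set) in members and at 2.07 in the others, 21.8 in microglia, 12.4 in dendritic cells, 4.20 in monocytes, and 0.886, 0.670 and 0.235 in B, T and NK cells. These are sums over all cells of a class. A Clec4b1 UMI was found in 1.85% of the others at a median depth of 13916 UMIs and in 0.274% of NK cells at a median of 7659, and NK cells are not known to express it. Cd72 reached 1263 CPM in members, 423 in microglia, 347 in the others and 175 in B cells, which are its classical source. It was 17.9 CPM in T cells, with a UMI in 15.0% of them at a median of 9276 UMIs, and 49.6 CPM in NK cells, with a UMI in 35.6% at a median of 7659. Against these, 73.8% of the others and 28.6% of monocytes held a Cd72 UMI, so that the share in monocytes is not above that in NK cells. By level, monocytes at 96.1 CPM and dendritic cells at 115 CPM stood above NK cells.

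The remaining markers followed the gate in most mice. The 6 mice with at least 10 members (WT mice 2, 3 and 4 and CaMKK2 KO mice 1, 3 and 4) were used to compare levels, with UMIs summed per mouse and values as mean ± SD (n = 6). Klra17 was 115 ± 48.7 CPM in members and 24.7 ± 13.8 in the others, and Htra4 was 62.8 ± 29.6 and 12.8 ± 8.25. Ch25h was 139 ± 86.3 in members and 39.2 ± 13.8 in the others. These 3 genes were higher in the members of all 6 mice. Ccl7 was uneven. It stood at 193, 355 and 132 CPM in the members of WT mice 2, 3 and 4, and at 1129, 88.8 and 106 in those of CaMKK2 KO mice 1, 3 and 4. A single mouse, CaMKK2 KO 1, carried the highest value, and Ccl7 was above the others in 4 of 6 mice, so that it did not mark these cells in every animal. Klra17 belongs to the family of closely related Ly49 genes, among which reads can be split, and its value is uncertain to that extent. Per cell, with each cell thinned to 10000 UMIs, 57.3% of 75 WT and 54.1% of 74 CaMKK2 KO members held a Klra17 UMI, against 12.8% of 218 and 7.29% of 329 others. Without thinning the shares were 64.1% and 58.8% in members and 14.9% and 9.16% in the others. Thinning left out 17 WT and 11 CaMKK2 KO members and 91 WT and 64 CaMKK2 KO others that were shallower.

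**Figure D1:**
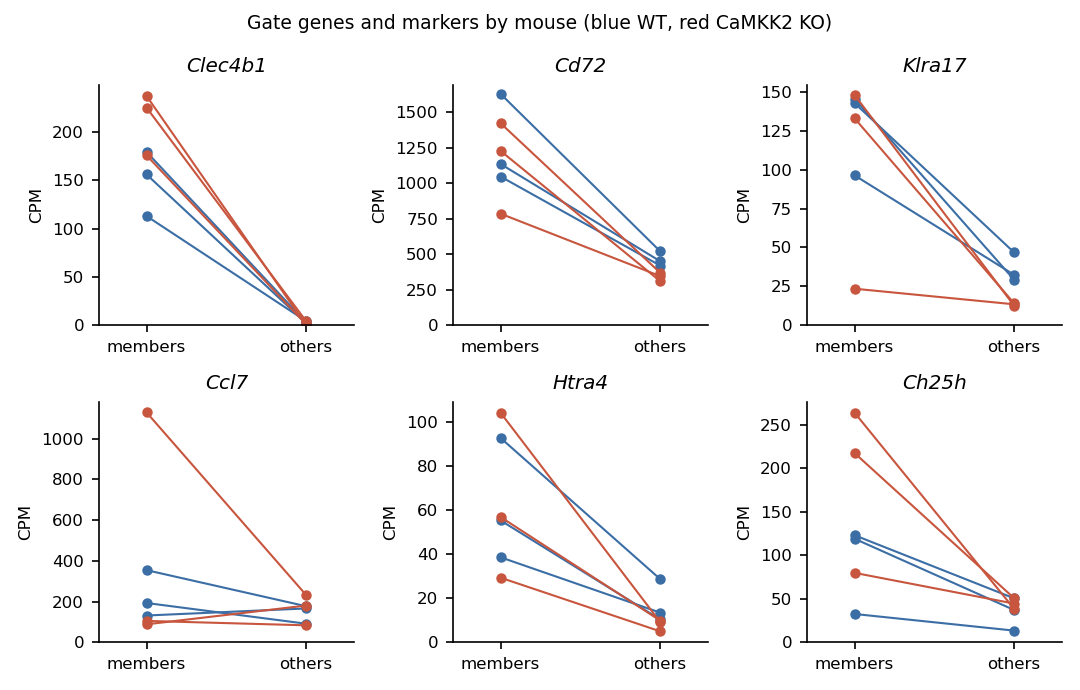
Level in CPM (linear axes from 0) of the gate genes Clec4b1 and Cd72 and of the 4 further markers, in members and in other candidate macrophages. Each line is 1 of 6 mice, blue for WT and red for CaMKK2 KO, and the Ccl7 panel shows the single mouse at 1129 CPM.

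The label of macrophage was checked against marker lists. All 10 genes of the macrophage list, among them Adgre1, Csf1r, Mertk, Cd68 and Tyrobp, were present, with a summed level of 5736, 6302 and 6048 CPM in the members of WT mice 2, 3 and 4 and 6663, 6283 and 7272 in CaMKK2 KO mice 1, 3 and 4. Tyrobp, a signalling adaptor, was the most abundant at 2149 ± 151 CPM. Of the microglia genes not used by the gate, Siglech was 1.84 ± 2.34 CPM and Gpr34 4.30 ± 1.58. Olfml3 (73.7 CPM in members and 45.7 in the others) passed the test described next as higher in members. Neutrophil genes summed to 60.1 CPM on average over the 6 mice, nearly all of it Csf3r at 53.6, and Retnlg was at 0. Dendritic cell genes summed to 95.3 CPM, of which Batf3, a transcription factor of dendritic cells, gave 77.4 ± 11.2 against 35.5 ± 18.7 in the others. Cd209a was at 0 and Zbtb46 at 0.494. T cell genes summed to 13.8, NK cell genes to 19.9 and tumor or glial genes to 2.36 CPM, with Olig1, Mog and Aqp4 at 0. Gzma, an NK cell protease, was lower in members (8.44 and 36.3 CPM, of which WT mouse 3 held 146 in the others). The data did not go against the label.

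Members were compared with the others in the same mice to describe what accompanied the pair of receptors. UMI sums entered edgeR's quasi-likelihood test with the mouse as a block and Benjamini-Hochberg adjustment, with total counts as library sizes, leaving out the 16 genes of the gate and the 4 further markers. The cells had been chosen on other genes of the same cells, so that the test shows what went with the gate across mice and is not an independent proof of a cell type. Of 5707 genes, 6.29% (359) were higher and 7.13% (407) lower in members at an adjusted p of 0.05. In all 6 mice 8.85% of genes were higher and 7.52% lower in members, whatever the test. With cells limited to the middle of the members' depth, 3846 genes were tested, and 156 were higher and 279 lower.

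Monocyte transcripts were low in members. All 6 testable genes of the monocyte list were lower, with a median log2 difference of -2.38 beside 0.04 over all genes tested. Ly6c2, the surface antigen of inflammatory monocytes, was 90.4, 68.8 and 87.5 CPM in the members of WT mice 2, 3 and 4 and 145, 21.3 and 287 in those of CaMKK2 KO mice 1, 3 and 4. In the others of the same mice it was 785, 699, 406, 1070, 938 and 3379 CPM, so that the 2 sets did not overlap. The log2 difference was -3.28 ± 0.25 (SE, adjusted p = 5.92e-06). Plac8 fell from 1112 ± 737 CPM in the others to 299 ± 297 in members, Ccr2, the receptor for Ccl2 and Ccl7, from 408 to 212, and F10, coagulation factor X, from 98.6 ± 52.4 to 9.53 ± 11.6 (adjusted p = 6.55e-05). CaMKK2 KO mouse 4 had the highest monocyte sum in both sets, 1648 CPM in members and 6916 in the others. Without it, 344 genes were higher and 370 lower in members.

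Genes of inflammation were lower in members as well. Of the 10 testable inflammatory mediators 8 were lower and none higher, with a median of -1.27, among them Il1b, Il1a, Il1rn, Ptgs2, Tnfaip3, Acod1 and Sod2. Il1b, which encodes interleukin-1 beta, stood at 440, 315, 832, 670, 229 and 1419 CPM in members and at 1545, 1884, 1874, 1496, 1452 and 1972 in the others (WT mice 2, 3 and 4, then CaMKK2 KO mice 1, 3 and 4). Every mouse had less Il1b in its members, and the highest member value, in CaMKK2 KO mouse 4, was just under the lowest value of the others. The log2 difference was -1.61 ± 0.22 (adjusted p = 2.44e-04). Il1rn, the receptor antagonist that opposes interleukin-1, was also lower, at 92.6 and 287 CPM. Tnf did not pass the test, at 47.2 ± 30.5 and 42.1 CPM (adjusted p = 0.99). Cd14, the co-receptor for bacterial lipopolysaccharide, fell by 1.31 on the log2 scale, from 535 ± 80.9 to 219 ± 64.6 CPM (adjusted p = 9.32e-05). Among the 12 genes with the largest fall were also Saa3, an acute phase protein, at 0.766 ± 0.851 CPM against 44.2 ± 74.0, of which CaMKK2 KO mouse 4 alone held 195 CPM. Haptoglobin (Hp), the leukotriene B4 receptor Ltb4r1, the platelet-activating factor receptor Ptafr, fibronectin (Fn1), Ly6i, Emp1 and AA467197 were in that group too. Clec4d and Clec4e, described below, belonged to it as well, and these genes had log2 differences between -3.06 and -2.30.

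**Figure D2:**
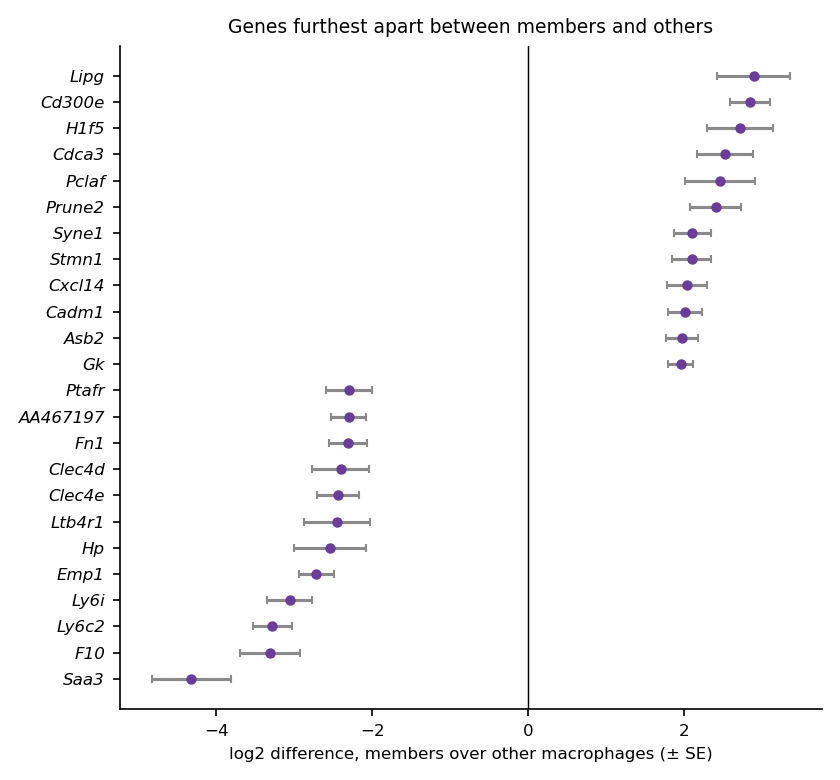
Log2 difference between members and other candidate macrophages with its standard error (edgeR, 6 mice), for the 12 genes furthest up and the 12 furthest down among those called in the same direction in every mouse. Saa3 is lowest and Lipg highest, and the lower group holds monocyte and inflammatory genes.

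The C-type lectin receptors were divided. Of 14 testable genes 6 were higher and 5 lower in members, with a median of -0.00 beside 0.04 over all genes tested. On chromosome 6 (mm10, GENCODE M21) a cluster of 9 Clec4 genes lies between 122921848 and 123289870. Within this cluster the calls followed the order of the genes, which is a description and was not tested. The other calls of the list are of genes outside the cluster. At the proximal end Clec4a1 (122921848 to 122934619), Clec4a3 (122952515 to 122969875) and Clec4a2 (123106428 to 123143999), which flank Clec4b1 (123049962 to 123071555), were higher in members. At the distal end Clec4n (123229843 to 123247021), Clec4d (123262111 to 123275265) and Clec4e (123281789 to 123289870) were lower. All 9 are annotated as protein-coding, and Clec4e alone of them lies on the minus strand.

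Clec4a2, an inhibitory receptor, was 497, 762 and 564 CPM in the members of WT mice 2, 3 and 4 and 663, 886 and 528 in those of CaMKK2 KO mice 1, 3 and 4. It was 234, 266, 298, 223, 305 and 176 CPM in the others, a log2 difference of 1.37 ± 0.11 (adjusted p = 6.50e-06). Every member value was above every value of the others. Clec4a1 was 520 ± 93.0 and 232 ± 74.4 CPM, and Clec4a3 421 ± 134 and 255 CPM. Clec4n, which encodes Dectin-2, stood at 183 ± 66.8 CPM in members and 328 in the others, Clec4d at 14.9 ± 14.3 and 68.4 ± 25.6, and Clec4e, which encodes Mincle, at 14.3 ± 12.01 and 79.7 ± 34.0 (adjusted p = 5.28e-05). Clec4b2 and Clec4a4 had a UMI in 0 of 177 members, which allows up to 1.69% of cells with a UMI, not of cells that express them. These genes are close relatives, and reads that they share could be split or lost in counting. Outside the cluster Clec12a, an inhibitory receptor, rose from 140 ± 22.4 to 338 ± 73.9 CPM. Fcer1g, the adaptor of the activating receptors, was 4616 ± 441 and 3681 ± 287 CPM, a difference of 0.33 ± 0.06 on the log2 scale. Klrb1b rose from 44.8 to 115 CPM, whereas Clec5a, at 84.1 and 145 CPM, and Klrk1, which encodes NKG2D, at 34.2 and 57.8, were lower.

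**Figure D3:**
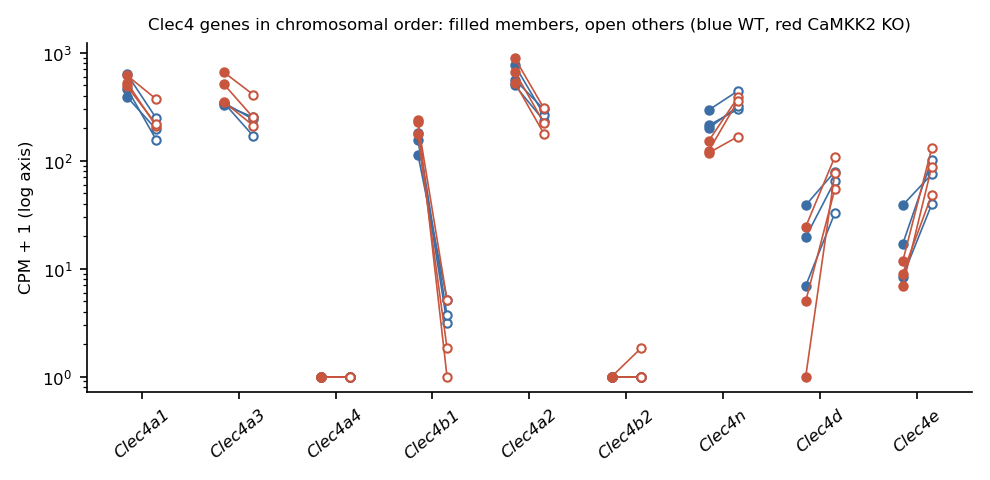
CPM plus 1 on a log axis for 9 Clec4 genes in their order along chromosome 6, in members (filled) and other candidate macrophages (open), with 1 line per mouse (blue WT, red CaMKK2 KO). Clec4a1, Clec4a3, Clec4b1 and Clec4a2 are higher in members and Clec4n, Clec4d and Clec4e lower, while Clec4a4 is at 0 and Clec4b2 at or near 0.

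Other receptors with inhibitory motifs were split too. Of 12 testable genes of the Ly49 and inhibitory receptor list 3 were higher and 2 lower. Siglece, a sialic acid receptor, rose from 49.9 ± 10.5 to 121 ± 44.7 CPM (adjusted p = 3.60e-04), Cd200r1 from 14.3 to 38.2 ± 17.8 CPM, and Klra2 from 269 to 360 ± 76.7 CPM in 5 of 6 mice. Fcgr2b, the inhibitory Fc receptor, and Cd300a were lower, each in 5 of 6 mice. Among the 12 genes with the largest rise was Cd300e, an activating receptor of monocytes and macrophages. It was 126, 82.0 and 87.5 CPM in the members of WT mice 2, 3 and 4 and 129, 110 and 211 in those of CaMKK2 KO mice 1, 3 and 4, against 8.34, 31.9, 17.5, 8.74, 12.4 and 29.4 in the others (log2 difference 2.84 ± 0.26, adjusted p = 1.07e-05). The lowest member value was above the highest value of the others. Of 5 Fc receptor genes Fcgr4 and Fcer1g were higher and Fcgr1 and Fcgr2b lower.

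Both testable genes of the B cell list, Cd79b and Ighm, were higher in members. Cd79b, a signalling chain of the B cell receptor, was 47.7, 95.3 and 96.4 CPM in the members of WT mice 2, 3 and 4 and 70.7, 138 and 64.5 in those of CaMKK2 KO mice 1, 3 and 4. In the others it was 20.9, 39.3, 29.7, 24.6, 43.8 and 16.8 CPM, and every member value was higher (log2 difference 1.54 ± 0.14, adjusted p = 1.07e-05). Ighm was 146 ± 41.5 and 60.3 ± 22.2 CPM and higher in 5 of 6 mice. Blnk, Cd81 and Fcrl5, also known from B cells, were picked after the values had been seen. The adaptor Blnk was 50.5 ± 20.8 and 19.4 ± 14.5 CPM and the co-receptor subunit Cd81 640 ± 253 and 237 ± 117, but microglia were above members in both, since sums over all cells of a class gave 63.0 CPM of Blnk in microglia and 54.4 in members, and 975 and 687 CPM of Cd81. Fcrl5, a receptor of marginal zone B cells, had too few UMIs for the test and was 44.8 ± 17.9 CPM in members and 6.04 ± 6.55 in the others. The defining B cell genes Ms4a1, Pax5 and Fcmr each had a UMI in 0 of 177 members, which allows up to 1.69% of cells with a UMI and sets no limit on cells that express them. A UMI of these genes was found in 82.8%, 63.6% and 77.6% of B cells. Cd79a was at 0 by the gate.

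The light chain gene Igkc is among the most abundant transcripts of B cells. In B cells it stood at 42364 CPM, beside 2934 for Ighm, while members held 4.83 CPM of Igkc beside 152 of Ighm. The Igkc level of members was below the 6.61 CPM of the others, while Ighm was 49.8 CPM in the others, 84.9 in microglia and 122 in NK cells. A UMI of Cd79b was present in 63.3% of members, 24.8% of the others, 43.6% of microglia and 5.15% of T cells. Fcrl5 was found in 33.3% of members and in 7.65% of B cells, whose median depth was 4315 UMIs against 16616 in members.

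Cell cycle genes were higher. All 10 testable genes of the cell cycle list were called, with a median of 1.502 (Mki67, Top2a, Cdk1, Birc5, Pcna, Mcm3, Mcm5, Mcm6, Tyms and Ube2c), and 3 of the 12 genes with the largest rise (H1f5, a linker histone, Cdca3, and Pclaf, which binds the replication clamp) belong to dividing cells. The microtubule regulator Stmn1 was 222 ± 122 and 47.7 ± 22.0 CPM. The proliferation antigen Mki67 was uneven, at 450, 154 and 87.5 CPM in the members of WT mice 2, 3 and 4 and 26.7, 137 and 35.2 in those of CaMKK2 KO mice 1, 3 and 4, against 16.7, 51.0, 36.4, 52.4, 47.1 and 25.2 in the others (adjusted p = 0.034). WT mouse 2 was highest, and in CaMKK2 KO mouse 1 members were below the others. A minority of cells carried these transcripts: at least 3 UMIs of Mki67 and Top2a together were found in 7 of 21, 3 of 20 and 6 of 43 members of WT mice 2, 3 and 4, and in 5 of 43, 9 of 29 and 1 of 11 of CaMKK2 KO mice 1, 3 and 4. After thinning to 10000 UMIs a Mki67 UMI remained in 25.3% of WT and 22.97% of CaMKK2 KO members, against 9.63% and 15.5% of the others. Without thinning these were 30.4% and 29.4% of members and 12.9% and 20.6% of the others.

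Also among the 12 genes with the largest rise were Lipg, endothelial lipase, at 52.7 ± 29.1 and 8.38 ± 12.2 CPM, and Gk. Gk, glycerol kinase, was 166, 222 and 150 CPM in the members of WT mice 2, 3 and 4 and 217, 206 and 147 in those of CaMKK2 KO mice 1, 3 and 4, against 34.4, 65.9, 49.3, 36.6, 45.4 and 66.3 in the others (log2 difference 1.95 ± 0.16, adjusted p = 6.91e-06). The 2 sets were far apart in every mouse and did not overlap. Pparg, a nuclear receptor of lipid metabolism named after its values were seen, was 46.2 ± 15.1 and 14.1 ± 9.36 CPM. Of 17 testable sterol and oxysterol genes none was higher and 3 were lower (Abca1, Mylip and Npc2), so that Ch25h, a marker, was the one gene of that list given as higher. Of 9 testable genes of lipid-associated macrophages 4 were lower (Spp1, Fabp5, Cd9 and Lgals3) and none higher. The rest of the genes with the largest rise were the chemokine Cxcl14, at 134 ± 38.7 and 33.5 ± 20.3 CPM, the adhesion molecule Cadm1, the nuclear envelope protein Syne1, Asb2 and Prune2, with log2 differences of 1.97 to 2.40.

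Most genes of the MHC class II list were lower, and fewer of the MHC class I and interferon lists. Of 10 MHC class II genes 8 were lower, with a median of -0.74 (H2-Aa, H2-Ab1, H2-Eb1, Cd74, H2-DMa, Ciita, Cd86 and Cd40). H2-Aa, which encodes a chain of the class II molecule, was 5490 ± 3319 CPM in members and 8881 ± 3757 in the others (adjusted p = 1.84e-04). The transactivator Ciita was 82.3 ± 82.7 and 184 CPM. For both genes members were the lower set within each of the 6 mice, whereas Cd74 and H2-DMa were higher in the members of CaMKK2 KO mouse 4 and Cd40 in those of WT mouse 2. Of 12 MHC class I genes 5 were lower (H2-Q7, H2-T23, Tap2, Tapbp and Psmb10), whereas B2m, H2-D1 and H2-K1, the most abundant, did not pass the test. Of 15 type I interferon response genes 7 were lower, among them Ifit2, Irf7, Oasl1, Oasl2, Ifi47 and Isg15, with Isg15 at 290 ± 157 and 589 CPM. Of 9 testable hypoxia and glycolysis genes 7 were lower (Slc2a1, Pgk1, Bnip3, Vegfa, Pfkl, Eno1 and Tpi1), with the glucose transporter Slc2a1 at 24.4 ± 10.6 and 85.7 ± 31.4 CPM. The gate had removed cells with 4 or more UMIs of 3 other hypoxia genes from both sets. No gene of these 4 lists was higher. Of 7 testable CC chemokines Ccl5, which draws T cells, was lower (791 and 1654 CPM) and none higher. Of 6 CXC chemokines Cxcl14 was higher, and Cxcl2, which draws neutrophils, and Cxcl10, an interferon-induced chemokine, were lower, at 80.2 and 257 and at 417 and 769 CPM. Cxcl10 was lower in 4 of 6 mice. It was higher in the members of CaMKK2 KO mouse 1 (897 and 828 CPM) and mouse 4 (862 and 795 CPM).

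In the remaining lists too the calls were mostly lower. Of 13 early response and heat shock genes 7 were lower (Fos, Jun, Junb, Atf3, Dusp1, Ier2 and Nr4a1), with Junb at 637 ± 114 and 1165 ± 133 CPM. Of 6 testable complement genes C3 and C5ar1 were lower. Of 7 testable matrix genes and proteases Fn1, Thbs1, Mmp12 and Mmp14 were lower, of 7 scavenger receptors Msr1 and Lrp1 were lower, and of 6 genes of alternative activation F13a1 was lower. Of the macrophage list Adgre1, which encodes F4/80, was higher, at 297 ± 68.8 and 184 ± 25.3 CPM, and Csf1r, Fcgr1 and Cd14 were among those lower. Of the mt- genes, mt-Atp6 was 7654 ± 1784 CPM in members and 4895 ± 1099 in the others.

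The candidates that held Cd72 without Clec4b1 lay between the members and the cells low in both. In the 6 mice there were 167 members, 281 candidates with at least 3 Cd72 UMIs and no Clec4b1, and 236 with fewer Cd72 UMIs and no Clec4b1, at median depths of 16292, 15442 and 12874 UMIs. In this order Cd300e stood at 124 ± 46.7, 27.1 ± 14.9 and 4.74 ± 5.32 CPM, Gk at 185 ± 34.5, 67.8 ± 18.8 and 22.0 ± 11.0, and Ly6c2 at 117 ± 92.6, 723 ± 807 and 1884 ± 1407 (SD, n = 6). The Cd72-only cells were intermediate for 12 of the 12 genes furthest up and 12 of the 12 furthest down. These genes had been chosen for their difference from a set that holds both of the other groups, so the order is a description. H2-Aa, which was not among them, was 5490 ± 3319, 8863 ± 3556 and 8923 ± 4220 CPM, so that for this gene the Cd72-only cells lay close to the cells low in both.

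Most members lay together when cells were clustered without the gate genes. All C1q-gated macrophages assigned to 1 mouse were clustered (Leiden, resolution 0.5) without the genes of the gate and the markers, which gave 7 clusters. The clusters use other genes of the cells that were gated, so their makeup is a description. One cluster of 267 cells held 129 of the 177 members (72.9%), 65 WT and 64 CaMKK2 KO, and was led by Prune2, Cd81, Cadm1, Col14a1, Fcrl5 and Cxcl14. A second, of 38 cells and led by Top2a, Pclaf, Birc5 and Mki67, held another 18 members (10.2%). In these clusters 53.1% and 54.5% of the candidates were members, against 2.74% to 13.04% in the others. A cluster of 526 cells, 510 of them from CaMKK2 KO mice, and one of 249 cells, 236 of them from WT mice, held 14 and 7 members. Of the 11 members of CaMKK2 KO mouse 4, 6 fell into the first of these and 4 into the cluster of most members.

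The genotypes were compared next for how many such cells each mouse held. Members made up 8 of 75 candidates in WT mouse 1 (10.7%), 21 of 91 in WT mouse 2 (23.1%), 20 of 88 in WT mouse 3 (22.7%) and 43 of 147 in WT mouse 4 (29.3%). They made up 43 of 154 in CaMKK2 KO mouse 1 (27.9%), 2 of 109 in CaMKK2 KO mouse 2 (1.83%), 29 of 114 in CaMKK2 KO mouse 3 (25.4%) and 11 of 101 in CaMKK2 KO mouse 4 (10.9%). The genotypes overlapped, and the CaMKK2 KO mice held both the second highest and the lowest share. The means were 21.4% ± 7.78 in WT and 16.5% ± 12.3 in CaMKK2 KO (SD, n = 4), a difference of -4.91 percentage points (two-sided exact permutation test, p = 0.6, where 0.0286 is the smallest p that 4 mice against 4 allow). Without CaMKK2 KO mouse 2 the difference was -0.01 points.

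The spread between mice was also seen at a fixed depth. With every candidate thinned to 10000 UMIs, WT mouse 1 held 1 member of 44 and CaMKK2 KO mouse 2 held 2 of 92, and the other mice stood between 11.5% and 25.7%. The means were then 17.7% ± 10.5 and 13.8% ± 8.95 (exact permutation p = 0.543). Out of all singlets that passed the filters, members were 1.58% ± 0.871 in WT and 1.44% ± 1.26 in CaMKK2 KO mice (exact permutation p = 0.886). When every barcode positive for both receptors was counted, whatever its other genes, the share was 5.49%, 5.10%, 5.99% and 12.8% in the WT mice and 9.59%, 0.612%, 8.24% and 1.29% in the CaMKK2 KO mice (exact permutation p = 0.371). CaMKK2 KO mouse 2 was the lowest by both counts.

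**Figure D4:**
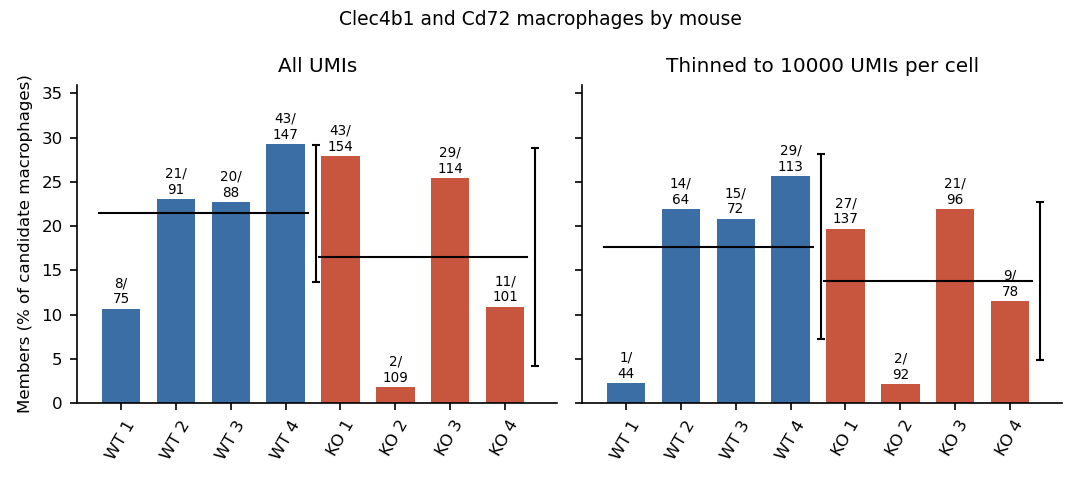
Members as a percentage of the candidate macrophages of each mouse, on all UMIs (left) and with each cell thinned to 10000 UMIs (right), with members and candidates counted above each bar. Lines and error bars give the mean ± SD of 4 mice, blue for WT and red for CaMKK2 KO, and the genotypes overlap in both panels.

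Camkk2 (ENSMUSG00000029471, chromosome 5 from 122731170 to 122779409), the deleted gene, was low in these cells. Over all candidates it stood at 28.0, 23.6, 33.4 and 25.0 CPM in WT mice and at 13.2, 11.5, 12.4 and 16.9 CPM in CaMKK2 KO mice, without overlap (-14.0 CPM, two-sided exact permutation p = 0.0286, the smallest possible). In the members of the 6 mice it was 20.1, 23.8 and 25.2 CPM in WT and 16.0, 1.78 and 11.7 in CaMKK2 KO mice (exact permutation p = 0.1, the smallest possible with 3 against 3). The libraries read 3' tags, which can lie outside a deleted part, so a remaining level in CaMKK2 KO mice is no test of the deletion. The genotypes overlapped in the gate genes over the 8 mice. In candidates Cd72 was 608 ± 215 CPM for WT and 480 ± 197 for CaMKK2 KO mice, and Clec4b1 was 40.3 ± 15.8 and 43.4 ± 33.3 (exact permutation p of 0.429 and 0.886).

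The genotypes were compared within members as well. With 3 WT and 3 CaMKK2 KO mice and 2172 genes that had at least 200 UMIs, edgeR called 0.46% of genes (10) higher and 0.23% (5) lower in CaMKK2 KO at an adjusted p of 0.05. The number of calls was small for a design that can miss differences of 2-fold, and it ranged from 4 to 159 over the alternatives. In 14.4% of the tested genes the 3 mice of one genotype lay entirely above or below the 3 of the other. Absence of overlap was a condition for naming genes by their genotype difference, so for those genes it follows from the choice. Sums held 377828 to 674098 UMIs in WT and 170513 to 749460 in CaMKK2 KO mice. Levels in the other macrophages of the same mice are given as a description for some of the genes.

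MHC class II genes were higher in CaMKK2 KO members. Of 8 testable genes of the list 4 were called, with a median log2 difference of 1.37 beside -0.05 over all genes. H2-Aa was 2138, 2491 and 3497 CPM in WT mice 2, 3 and 4 and 7631, 6718 and 10468 in CaMKK2 KO mice 1, 3 and 4, a log2 difference of 1.61 ± 0.22 (adjusted p = 0.0122). The genotypes did not overlap. H2-Eb1 differed by 1.86 ± 0.20 (adjusted p = 0.00280), H2-Ab1 by 1.69 ± 0.23, and Cd74, the invariant chain that guides class II molecules, by 1.504 ± 0.20. In the others H2-Aa was 5468 ± 265 CPM for WT and 12293 ± 526 for CaMKK2 KO mice (SD, n = 3), so that members were below the others in either genotype. All 4 calls were lost when the mice with under 10 members were added (adjusted p of 0.0697 for H2-Eb1, 0.180 for H2-Aa, 0.250 for H2-Ab1 and 0.352 for Cd74), and H2-Aa, H2-Ab1 and Cd74 were lost without WT mouse 2 or 3 or CaMKK2 KO mouse 1.

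Apoe, an apolipoprotein that carries cholesterol out of macrophages, had the lowest p of the tested genes. It was 25924, 24104 and 24998 CPM in the members of WT mice 2, 3 and 4 and 2045, 2074 and 1537 in those of CaMKK2 KO mice 1, 3 and 4 (log2 difference -3.72 ± 0.15, adjusted p = 1.72e-06). The genotypes did not overlap. In the others Apoe was 27842 ± 5461 and 2143 ± 1440 CPM. Between members and others it did not pass the test, with a log2 difference of -0.06 (adjusted p = 0.852). Olfml3, a secreted glycoprotein typical of microglia, was 131, 122 and 90.5 CPM in WT and 30.7, 16.0 and 52.8 CPM in CaMKK2 KO members. Pf4, a platelet and macrophage chemokine, was 203, 199 and 89.0 in WT and 48.0, 32.0 and 29.3 in CaMKK2 KO members, and its call was lost in 6 of the alternatives tried. In the others Olfml3 was 78.2 ± 2.93 CPM for WT and 13.2 ± 4.22 for CaMKK2 KO mice, while Pf4 was 208 ± 121 and 79.2 ± 69.5 CPM, and the genotypes overlapped there. Ly86, a partner of the receptor RP105, was 1186, 1262 and 1234 CPM in WT and 741, 552 and 639 in CaMKK2 KO members. In Olfml3, Pf4 and Ly86 no mouse crossed to the range of the other genotype.

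Other genes were higher in CaMKK2 KO members by a wide margin. Ifi202b, an interferon-inducible gene, had no UMI in the members or the others of the WT mice and stood at 227, 123 and 264 CPM in the members of CaMKK2 KO mice 1, 3 and 4. Against 3 counts over the WT group, this is at least 98.8-fold higher. Gm8797 was 7.54, 7.94 and 5.93 CPM in WT and 147, 195 and 158 in CaMKK2 KO members. Ifi44, an interferon-induced gene, was 37.7, 45.0 and 19.3 CPM in WT and 239, 137 and 405 in CaMKK2 KO members, and Hebp1, a heme-binding protein, 60.3, 50.3 and 51.9 and 161, 328 and 194. In each of these genes no CaMKK2 KO mouse reached down to a WT mouse, which was a condition for naming them. The calls of Ifi44 and Hebp1 were lost when any 1 WT mouse was left out (adjusted p of 0.0764 to 0.111). Wls, which is needed to secrete Wnt proteins, and S100a10 were called as well, at log2 differences of 1.61 ± 0.28 and 0.98 ± 0.16, and Wls lost its call under 7 alternatives. In the others Gm8797 was 7.38 ± 0.982 and 186 ± 27.6 CPM, and Ifi202b 0 and 311 ± 141 CPM. No gene of the type I interferon list, which does not hold Ifi44 or Ifi202b, was called among 13 tested. Over all tested genes 0.46% were called higher and 0.23% lower, so this count says little about the list. Its median log2 difference was 0.46, beside -0.05 over all genes.

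**Figure D5:**
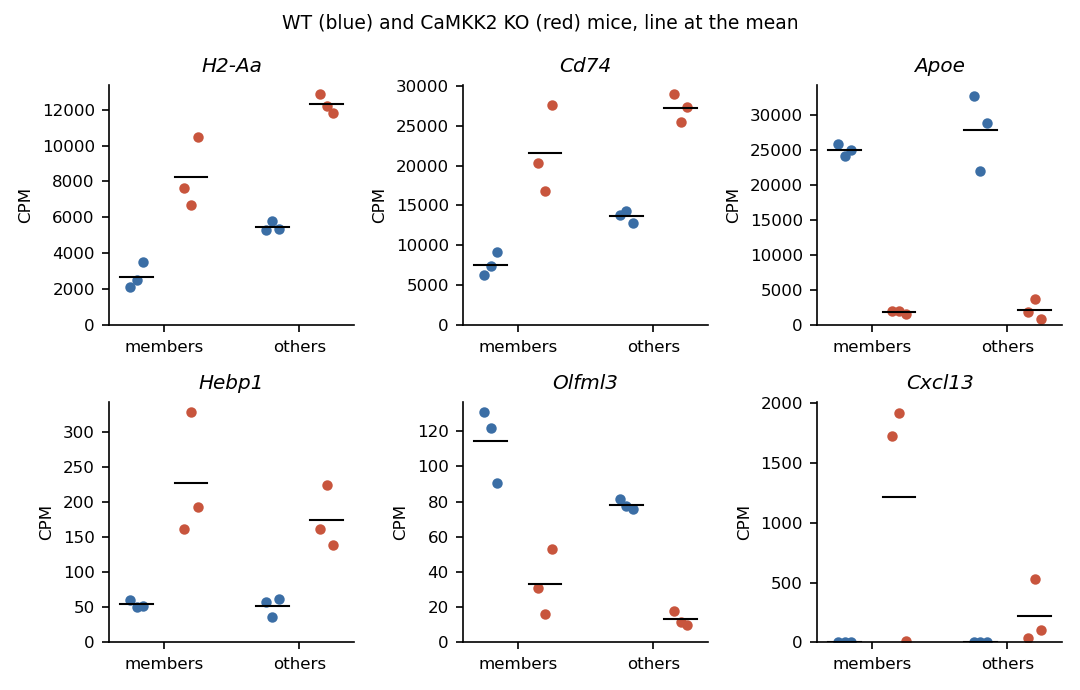
CPM (linear axes from 0) of 6 genes in members and in other candidate macrophages, with 1 point per mouse for 3 WT (blue) and 3 CaMKK2 KO (red) mice and a line at the mean. H2-Aa, Cd74 and Hebp1 are higher and Apoe and Olfml3 lower in CaMKK2 KO mice in both sets, and Cxcl13 is high in the members of 2 CaMKK2 KO mice.

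No genotype difference was shown to be particular to members. The interaction of genotype and membership was called for 0 of 5707 genes by edgeR (0% at an adjusted p of 0.05, 284 genes or 4.98% at an unadjusted p of 0.05), and for 1 gene by DESeq2. The lowest adjusted p was that of Ccl3, 0.118, at a log2 interaction of 1.83 ± 0.28. With 6 mice and 167 members, this count does not show that the genotype difference was alike in both sets, since large differences can be missed at this size.

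Cxcl13, which draws B cells and follicular T cells into tissue, was uneven among members and was chosen for description after its values were seen. A UMI was found in 0 of 92 WT members, which allows up to 3.26% of cells with a UMI, not of cells that express it, whereas CaMKK2 KO mice 1, 2, 3 and 4 held 1296, 475, 1079 and 2 in 43, 2, 29 and 11 members. It was detected in 15, 1, 12 and 2 of these cells. Single cells held 740, 475 and 728 of the UMIs in CaMKK2 KO mice 1, 2 and 3, and the 3 highest cells gave 84.6% and 94.5% of those of mice 1 and 3. High Cxcl13 thus lay in a few cells, and edgeR did not call the genotype difference (adjusted p = 0.0809). The others held 6 Cxcl13 UMIs (WT) and 885 (CaMKK2 KO). In the microglia gate the level was 72.1 CPM for WT and 1459 CPM for CaMKK2 KO mice. NK cells, which are not known as a source, held 0.398 and 8.84 CPM, and the part of free RNA in the low counts per cell of CaMKK2 KO mice was not tested. After thinning to 10000 UMIs a Cxcl13 UMI was found in 29.7% of CaMKK2 KO members and 13.4% of CaMKK2 KO others, and without thinning in 35.3% and 19.8%.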

How the data were processed

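Deposited values were raw UMI counts per gene and barcode that the authors made with bcl2fastq 2.20 and Cell Ranger 4.0.0 (with STAR 2.7.5c) on mm10, per the submitters' processing notes, and hashtag counts per barcode. Hashtags were assigned with HTODemux (Seurat 5.3.0, quantile 0.99), and only singlets entered comparisons. Doublets were scored with Scrublet (scanpy 1.11.5) at an expected 0.8% per 1000 barcodes. UMIs were summed per mouse over members and over the others, with total counts as library sizes, and sums with at least 10 members (6 mice, 170513 to 749460 UMIs) were tested with edgeR 4.0.16 in R 4.3.3 (quasi-likelihood, Benjamini-Hochberg adjustment over genes with at least 200 UMIs, adjusted p of 0.05), after tests on simulated data. Shares were compared with two-sided exact permutation tests over mice (scipy 1.17.1). Means are given with SD over mice and fitted differences with SE. Floors and intervals cover counting error only. Named genes are the 12 furthest up and down among calls at least 2-fold apart, with a mean of at least 20 CPM and the same direction in every mouse (for genotypes, no overlap), with called members of each list. The members, markers and gene lists were chosen with earlier results of these data known. Alternatives were DESeq2 1.42.0, TMM, other filters, gates and comparators, matched depth, no mouse block, and leaving out high Scrublet scores or each mouse. Values of some genes are not reported here.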

Additional observations from a re-analysis of the deposited data

Results flagged for a closer look

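The share of all filtered singlets that held at least 3 Cd72 UMIs and 1 Clec4b1 UMI, whatever their other genes, was 12.8% in WT mouse 4, against 5.10% to 5.99% in the other WT mice. Its gap to the nearest mouse was large for the range of 4 values. Of 24 groups of 4 mice looked at in this way it was the single one that stood out, and chance gives about 1 in 20.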

How the results depend on the processing

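For members against the others, 766 genes passed the threshold, and 470 did with DESeq2, 435 with cells of matched depth, 362 without the mouse block, 1194 against all other C1q-gated macrophages and 457 to 714 with 1 mouse left out. Of the 435, 383 were among the 766. Between genotypes within members, 15 genes passed, and 35 did with DESeq2, 37 with filterByExpr, 159 with no filter on low counts and 4 to 19 with 1 mouse left out. For the interaction, 0 genes passed, and 1 did with DESeq2, 1 with cells of matched depth, 1 with filterByExpr, 44 with no filter and 0 to 1 with 1 mouse left out. Camkk2 differed by -14.0 CPM over candidates and by -13.2 CPM in members alone, and by -15.3 to -12.1 CPM with 1 mouse left out, where the smallest p possible is 0.0571. The cause of these changes was not tested. The share of members kept its direction under every alternative, from -8.71 to -0.01 percentage points, with exact permutation p of 0.371 to 0.914. The alternatives reuse the same mice, so a shared direction does not by itself show a difference. Of the named genes of the member comparison, 395 values under alternatives kept direction and call and 1 lost its call (Saa3 without the mouse block, adjusted p = 0.0503). Of those of the genotype comparison, 128 kept both and 32 lost the call, and none reversed in either. The fits with all 8 mice for the member comparison and the interaction, Camkk2 in members alone or with a mouse left out, the share without the rest of the gate and the split by Cd72 and Clec4b1 were added after seeing the data. Members and others were paired within mice by the mouse block. No paired analysis was possible between the genotypes, because each is 1 library and a shared hashtag number does not link 2 mice. WT mouse 1 and CaMKK2 KO mouse 2 gave 8 and 2 members, which limits what their sums can show.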
